A study of Homo sapiens with 12 samples.

Results

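A set of 30 probes among the 13617 circRNA probes on the array (0.22%) gave a signal well above background on nearly all arrays of EndoC-βH1 cells exposed to cytokines and on almost none of untreated cells. A probe was counted when the scanner software set its well-above-background flag on at least 5 of the 6 cytokine arrays and on at most 1 of the 6 untreated arrays, so each circRNA in the set was chosen from the very contrast of cytokines against no cytokines. Levels with and without cytokines are therefore given as a description with no test. The time course within the cytokine-treated cells was tested, although the choice was not fully independent of it. Detection on at least 5 of the 6 cytokine arrays left out circRNAs detected at only 1 time point. This limits how far the members could differ between the time points.

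EndoC-βH1 is a human insulin-producing cell line, derived from fetal pancreas by immortalization, and all 12 arrays come from this 1 line. The 4 groups of 3 arrays were cells left untreated for 24 h, cells given IL-1β (50 U/mL) and IFN-γ (1000 U/mL) for 24 h, cells left untreated for 48 h, and cells given the same pair of cytokines at the same doses for 48 h. For the last group the sample labels disagree with themselves, since they name 48 h for the culture and 24 hours for the cytokines. The methods of the study give 48 h for both, and that time is used here. In every group total RNA was digested with RNase R before labelling, and each array held 1 sample in a single colour (Cy3). None of the labels says whether the 3 samples of a group were separate cultures, so p-values measure only the spread between these samples, which may be technical.

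A circular RNA arises when the spliceosome joins a downstream splice donor to an upstream acceptor, which leaves a closed ring without free ends. RNase R, an exonuclease that degrades linear RNA from its end, spares such rings, and a probe placed across the back-splice junction reads the ring rather than the linear transcript of the same gene. IL-1β acts on cells mainly through NF-κB, and IFN-γ through kinases bound to its receptor, and together they are widely used to imitate the islet inflammation of type 1 diabetes. The probes are named here by their array identifiers, because the files used here do not pair them with host genes or circRNA names. For the same reason the members could not be grouped by the role of their host genes, and no probe sequences were at hand to show. The signal of a probe also depends on the probe itself, so signals are compared between arrays for 1 probe and not between probes as amounts of RNA.

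Depth on an array is set by signal over background, and the number of arrays limits the precision. The median spot signal was 25 to 37 intensity units per array over a local background of 14 to 16, and detection reached 8735 to 10226 circRNA probes on an array. The arrays with most detected probes were cytokines 24 h replicate 1 (10226) and untreated 48 h replicate 3 (10094). Scan day, read from the date that the scanner recorded, and scan run were not balanced. Scan day 2 held the 3 arrays of cytokines 48 h and untreated 48 h replicate 3, and scan day 1 held the other 8. Cytokines 24 h replicate 2 was in a scan run of its own, apart from the other arrays of scan day 1. None of the 26 listed markers of beta cells or other cell types is among the 70 linear mRNA probes, so the cell type on the label could not be checked on these arrays.

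The 30 circRNAs fell into 4 detection patterns. Of these, 12 were detected on all 6 cytokine arrays and on 0 untreated arrays, 7 on 6 cytokine arrays and 1 untreated array, 6 on 5 cytokine arrays and 0 untreated arrays, and 5 on 5 cytokine arrays and 1 untreated array. Detection was called on 169 of the 180 cytokine spots and on 12 of the 180 untreated spots. A spot that is not well above background may still hold signal. By the laxer flag of the same software, positive and significant against the background, all 30 were present on each cytokine array and 17 to 25 of them on each untreated array, and only 2 of the 30 would meet the rule with that flag. Most of the 13617 probes lay at the corners of the plot of detection by array, with 7594 detected on all 12 arrays and 2498 on none.

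**Figure D1:**
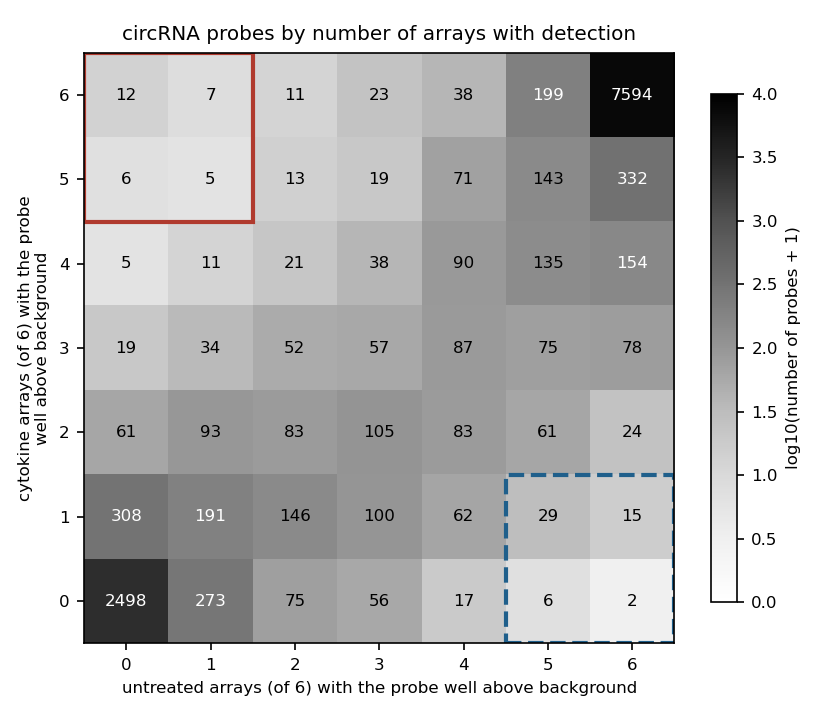
Number of circRNA probes by how many of the 6 untreated arrays (x axis) and of the 6 cytokine arrays (y axis) had the probe well above background; grey shade is log10 of the count plus 1. The solid box holds the 30 probes detected on at least 5 cytokine arrays and at most 1 untreated array, and the dashed box the 52 probes of the opposite pattern.

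The same rule turned round, with at least 5 untreated arrays and at most 1 cytokine array, found 52 probes. The 2 directions differed in how clean the pattern was. Only 2 of these 52 probes were detected on all 6 untreated arrays and on 0 cytokine arrays, against 12 of the 30, and 29 of the 52 lay in the loosest pattern (5 arrays against 1), against 5 of the 30.

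How far the time points agreed was read from the probes that 1 time point alone would have chosen. At 24 h, 38 of the 13617 probes were detected on all 3 cytokine arrays and on 0 of the 3 untreated arrays. On the arrays of 48 h, 12 of these 38 probes (31.6%) showed the same complete pattern, 22 were detected more often with cytokines, 12 equally often and 4 less often. At 48 h, 27 of the 13617 probes had the complete pattern, and at 24 h 12 of these 27 (44.4%) had it as well. At 24 h, 24 of the 27 were detected more often with cytokines, 2 equally often and 1 less often. In the opposite direction, of 39 probes detected on all untreated and no cytokine arrays at 24 h, 2 (5.13%) had the complete pattern again at 48 h. At 48 h these 39 were detected more often without cytokines in 17 cases (43.6%), equally often in 18 and less often in 4. Of 74 such probes at 48 h, 2 (2.70%) had the complete pattern at 24 h, and there 37 (50.0%) were detected more often without cytokines, 29 equally often and 8 less often. The share of all probes detected more often in either treatment was not computed, so the counts of this kind have no background beside them.

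Signals were low. The members' background-subtracted processed signal was 3.23 to 57.8 intensity units on the cytokine arrays, with a median of 11.3, and 0.896 to 9.40 on the untreated arrays, with a median of 2.30. The lowest signal that was still called well above background was 4.28 to 4.89 units, depending on the array, and the median over all circRNA probes and arrays was 13.7 units. None of the 360 member spots was saturated or marked as non-uniform or as a population outlier. The 30 spots were spread over the array with no 2 of them adjacent. A processed signal close to 1 unit (a log2 value close to 0) is what the software gives a spot at or under its background, so the values of untreated arrays near 0 carry no order among themselves.

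After quantile normalization, the mean log2 signal of a member over the 6 cytokine arrays ranged from 2.65 to 4.77 (median 3.48), and its mean over the 6 untreated arrays from -0.00 to 2.14 (median 1.20). All log2 signals below are on this scale. For 27 of the 30 members every cytokine array lay above every untreated array, where the background over all 10211 probes retained for testing was 1.95%. Within 24 h the groups were apart in this direction for 28 members (background 8.63%), and within 48 h for 28 (background 10.4%). The rule had used these detections, so the count describes the set and nothing more.

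**Figure D2:**
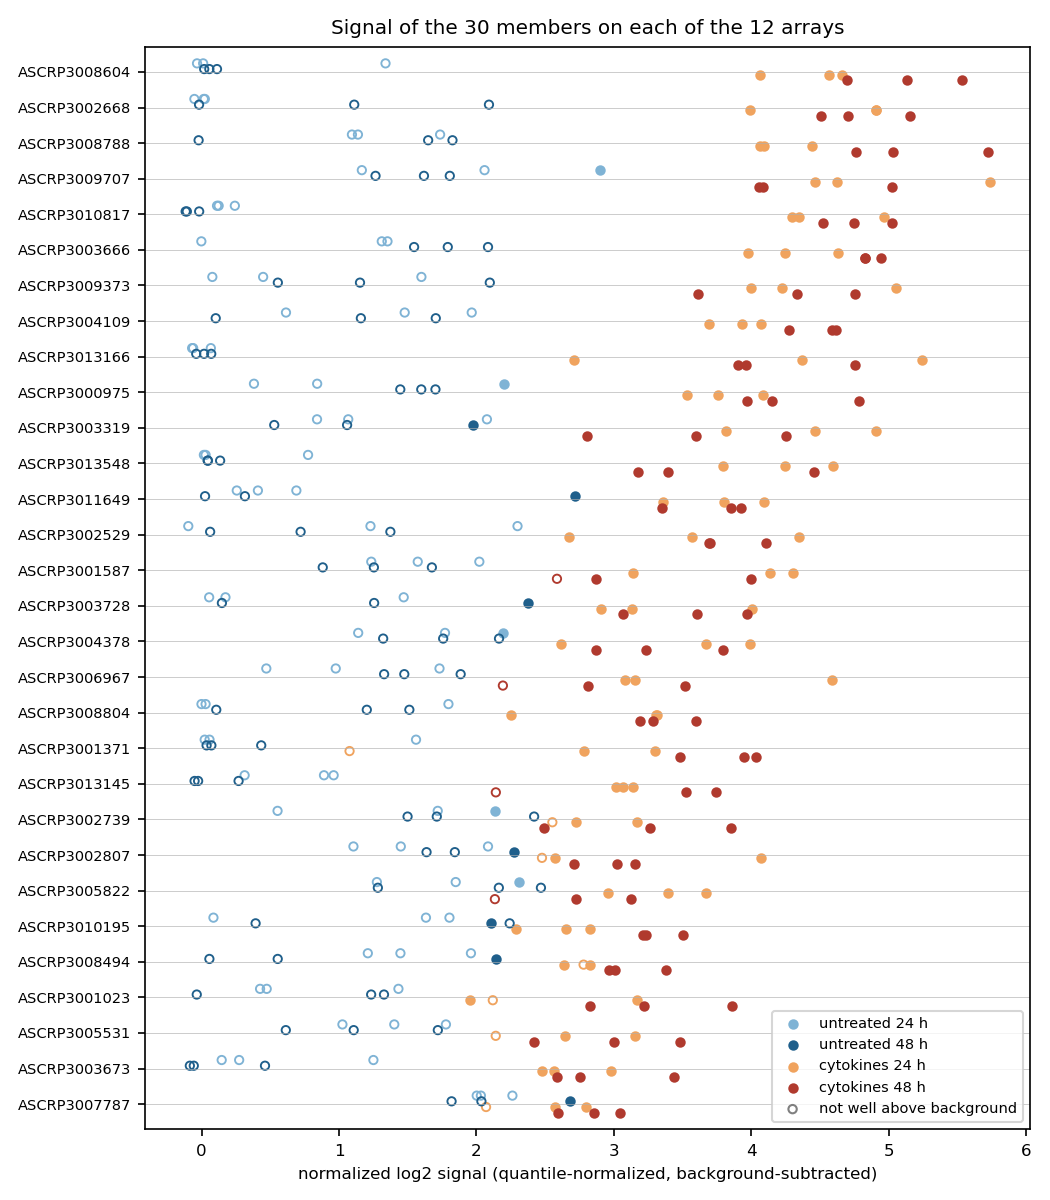
Normalized log2 signal (x axis) of the 30 circRNA probes (y axis) on the 12 arrays, coloured by group; filled points were well above background and open points were not. The cytokine arrays lie to the right of all untreated arrays for 27 of the 30.

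ASCRP3010817 was the member with the smallest standard error. That error includes its untreated values, all near the value of spots at or under background, with SDs of 0.07 at 24 h and 0.05 at 48 h. Its processed signal was 48.3, 16.2 and 17.5 units on the 3 cytokine arrays at 24 h and 20.2, 24.6 and 25.0 at 48 h, against 1.03, 1.1 and 1.25 units on the untreated arrays at 24 h and 0.896, 0.925 and 0.994 at 48 h. None of its 6 untreated values was well above background. In normalized log2 signal it stood at 4.96, 4.35 and 4.29 with cytokines for 24 h, and at 4.52, 4.75 and 5.03 for 48 h. The fitted difference from untreated cells was 4.37 (SE 0.24) on the log2 scale at 24 h and 4.84 (SE 0.24) at 48 h. Since it was well above background on no untreated array, its increase on this scale is bounded from below: at least 5.29-fold at 24 h and at least 6.31-fold at 48 h. This bound sets the mean of the cytokine arrays against the lowest signal that counted as detected on each untreated array, or the probe's own signal where that was higher. Such a bound carries no sampling error and holds only for background-subtracted signals. At 24 h the fitted log2 difference of ASCRP3010817 was 1.22 before background subtraction and 1.08 on the values the authors deposited. With a normexp background correction it was 0.51.

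ASCRP3008604 had the highest mean normalized signal on the cytokine arrays. It was at 4.66, 4.06 and 4.56 with cytokines for 24 h and at 5.53, 4.70 and 5.13 for 48 h. Untreated arrays gave 1.34, 0.01 and -0.03 at 24 h and 0.02, 0.11 and 0.06 at 48 h, none of them well above background, and the groups did not overlap. The bounds were at least 4.92-fold at 24 h and at least 8.06-fold at 48 h.

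ASCRP3002668 was at 4.91, 4.91 and 3.99 with cytokines for 24 h and at 5.15, 4.70 and 4.51 for 48 h. Its untreated values were -0.05, 0.02 and 0.02 at 24 h but 2.09, 1.11 and -0.02 at 48 h, so the fitted difference was 4.61 (SE 0.44) at 24 h and 3.72 (SE 0.44) at 48 h although the cytokine arrays were no lower. As none of the 6 untreated values was well above background, that gap between the time points rests on values close to background. The bounds, which do not use them, were at least 5.55-fold at 24 h and at least 6.40-fold at 48 h.

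ASCRP3008788 was at 4.09, 4.44 and 4.06 with cytokines for 24 h and at 5.72, 4.76 and 5.03 for 48 h, so that the arrays of 48 h all lay above those of 24 h. Its untreated arrays were at 1.74, 1.14 and 1.09 at 24 h and at 1.83, 1.65 and -0.02 at 48 h. It had the highest bound of all members at 48 h, at least 8.36-fold, against at least 4.20-fold at 24 h.

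ASCRP3003666 was at 3.98, 4.24 and 4.63 with cytokines for 24 h and at 4.94, 4.83 and 4.83 for 48 h, with an SD of 0.07 between the 3 arrays of 48 h. Its untreated arrays lay between -0.00 and 2.08. ASCRP3013166 was as low as ASCRP3010817 in untreated cells, between -0.07 and 0.07 on all 6 arrays. With cytokines it was at 5.24, 4.37 and 2.71 for 24 h, a spread (SD 1.29) that was the widest of any member in a cytokine group, and at 4.76, 3.96 and 3.90 for 48 h.

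Of the other members with high signal on the cytokine arrays, ASCRP3009707 and ASCRP3000975 were each detected on 1 untreated array, untreated 24 h replicate 2. ASCRP3009707 was at 2.90 there, against 1.17 to 2.06 on the other 5 untreated arrays and 4.06 to 5.73 on the cytokine arrays. ASCRP3000975 was at 2.20 there, against 0.38 to 1.70 on the other 5 and 3.53 to 4.78 with cytokines. ASCRP3009373 (3.61 to 5.05 with cytokines, 0.08 to 2.10 without) and ASCRP3004109 (3.69 to 4.61 with, 0.10 to 1.97 without) were detected on all 6 cytokine arrays and on 0 untreated arrays. None of these 4 had overlapping groups.

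Over the 30 members, the median fitted difference between cytokine-treated and untreated cells was 2.46 on the log2 scale at 24 h (range 0.38 to 4.61) and 2.70 at 48 h (range 0.65 to 5.06). At 24 h, 19 of the 30 passed the cutoffs of the study in limma, an absolute log2 fold change of 1 and an adjusted p of 0.05. The background was 1.11% of the 10211 retained probes called higher with cytokines at 24 h. At 48 h, 21 of the 30 passed, beside a background of 0.842%. Both time points called 16 members, 24 h alone 3, 48 h alone 5, and neither 6. Because the rule used this contrast, nothing is read from these counts beyond their description of the set.

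**Figure D3:**
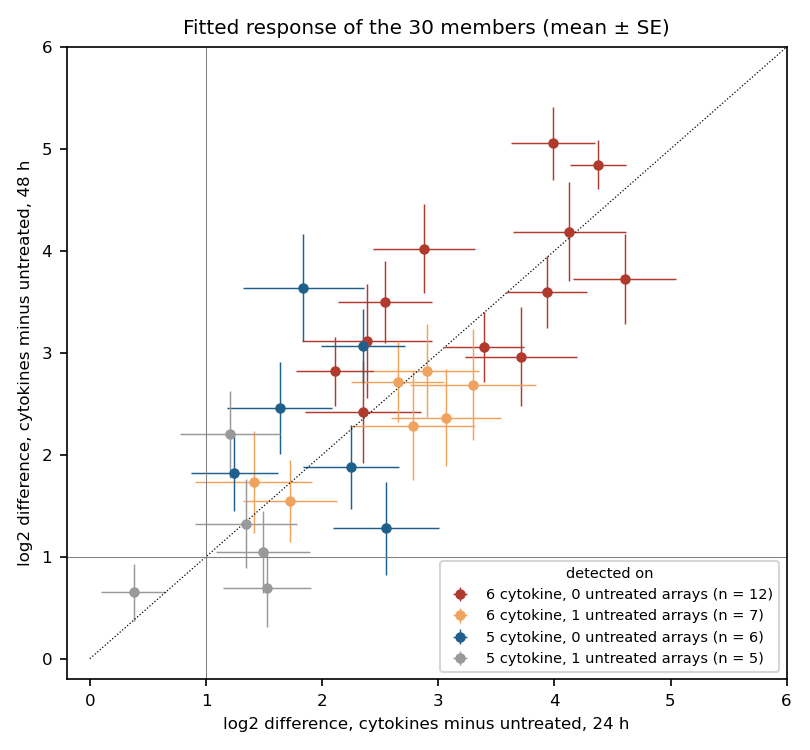
Fitted log2 difference between cytokine-treated and untreated cells at 24 h (x axis) and 48 h (y axis) for the 30 probes, with limma's standard errors, coloured by the number of arrays with detection; the dotted line marks equal values and the grey lines a log2 difference of 1. The 12 probes detected on all cytokine and no untreated arrays reach the highest values, and the 5 probes in the loosest pattern the lowest.

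The size of these differences depended on how the background was handled, since most untreated values were not well above it. The median was 0.67 at 24 h and 0.66 at 48 h on signals before background subtraction, with 9 and 7 members past the cutoffs, beside 0.823% and 0.548% of all probes called higher. On the log2 values that the authors deposited it was 0.58 and 0.53, with 4 members past the cutoffs at each time, beside 0.686% and 0.47%. With a normexp background correction it was 0.26 and 0.23, and 0 members passed in limma, beside 0.304% and 0.255% of all probes called higher. At an unadjusted p under 0.05 there were 22 members at 24 h and 25 at 48 h with normexp, beside 18.9% and 9.73% of all probes. Under each of these settings, as on the processed signals, all 30 fitted differences were above 0 at both times, where on the processed signals the background of differences above 0 was 44.1% at 24 h and 50.8% at 48 h. The rule had used this contrast on the same spots, so the shared sign and the counts only describe the set. ASCRP3002668 and ASCRP3010817 passed the cutoffs at both times on the deposited values and before background subtraction alike.

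Lower bounds could be given for 25 members at 24 h, those with 0 of 3 untreated arrays well above background. The mean of the cytokine arrays in a bound is over all 3, and for 6 of these members at 24 h and 4 at 48 h it includes 1 array that was not well above background. The bounds at 24 h ran from at least 1.19-fold to at least 5.55-fold, with a median of 2.79, and 15 were at least 2-fold. At 48 h, 23 members had a bound, from at least 1.44-fold to at least 8.36-fold with a median of 3.28, and 19 were at least 2-fold. The rule had used these same detections, so bounds above 1 were largely set by the choice. They describe the set, and bounds were not computed for the other probes.

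The detection pattern went along with the size of the response. The 12 members of the strictest pattern had a median difference of 3.56 at 24 h and 3.55 at 48 h, and 11 and 12 of them passed the cutoffs. For the 7 members with 6 cytokine arrays and 1 untreated array the medians were 2.78 and 2.36, with 5 and 4 past the cutoffs. Those with 5 cytokine arrays and 0 untreated arrays had medians of 2.05 and 2.17, with 3 and 4 of 6 past the cutoffs. In the loosest pattern the medians were 1.34 and 1.04, with 0 and 1 of 5 past the cutoffs. The pattern and the difference come from the same spots, and this order is a description.

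Just inside the limit lay the 5 members with 5 cytokine arrays and 1 untreated array, whose mean log2 signal was 2.65 to 3.01 on the cytokine arrays and 1.23 to 2.14 on the untreated ones. ASCRP3002739 had values of 2.72, 2.55 and 3.17 with cytokines for 24 h and of 3.85, 2.49 and 3.26 for 48 h. Its untreated arrays reached 2.14 at 24 h and 2.42 at 48 h, which nearly met the cytokine arrays. ASCRP3002807 was between 2.48 and 4.07 with cytokines and between 1.11 and 2.27 without.

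Just outside lay 40 probes, 16 with 4 cytokine arrays and at most 1 untreated array and 24 with at least 5 cytokine arrays and 2 untreated arrays. Their mean on the cytokine arrays was 1.92 to 5.81 (median 2.85). ASCRP3001033 was detected on all 6 cytokine arrays, at 5.24 to 5.99, and missed the limit because 2 of its untreated arrays, which spanned 1.20 to 2.53, were called well above background. ASCRP3005967 likewise was at 4.97 to 6.22 with cytokines and at 0.91 to 3.10 without. Their means over the cytokine arrays were 5.81 and 5.52 and their means over the untreated arrays 1.77 and 1.95, so both stayed out through the flags of 2 untreated arrays and not through a small difference.

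The timing of the response was tested by comparing cytokines for 48 h with cytokines for 24 h. The rule requires detection on at least 2 of 3 cytokine arrays at either time. A circRNA present at 1 time point alone could therefore not have entered the set. A small difference between the time points is thus partly set by the choice. Of the 30 members, 23 were detected on all 3 cytokine arrays at 24 h and 26 at 48 h. The complete pattern, with 3 of 3 cytokine and 0 of 3 untreated arrays, held for 19 members at each time point.

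No member passed the cutoffs of limma's test between 48 h and 24 h of cytokines, with Benjamini-Hochberg adjusted p-values of 0.354 to 0.98. The background in this contrast was 0.0%, since 0 of the 10211 probes passed in either direction. With arrays weighted by their quality, 205 probes (2.01%) were called higher and 366 (3.58%) lower at 48 h, and still 0 members. At an unadjusted p under 0.05 there were 2 members and 1218 of all probes (11.9%). The median difference, 48 h minus 24 h, was 0.24 on the log2 scale over the members (range -0.84 to 1.44) and 0.05 over all retained probes. It was above 0 for 20 of the 30 members, beside 54.4% of all probes. The precision was limited: a member's 95% confidence interval reached 0.52 to 1.22 (median 0.94) to either side of the estimate, and it lay within 1 log2 unit of 0 on both sides for 6 of the 30, beside 45.5% of all probes. For the other 24 a change of 2-fold or more between the time points was within the interval.

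**Figure D4:**
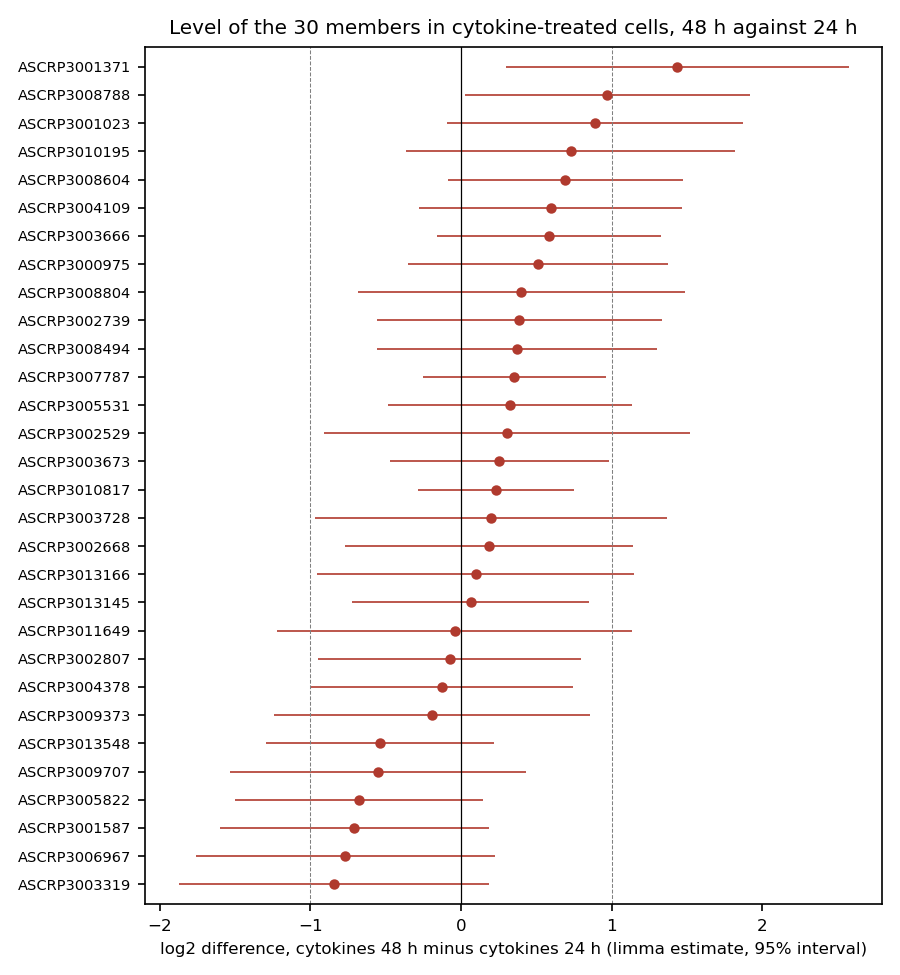
Difference in log2 signal between 48 h and 24 h of cytokines (x axis) for the 30 probes (y axis), as limma's estimate with its 95% confidence interval; dashed lines mark a difference of 1 in either direction. The intervals of ASCRP3001371 and ASCRP3008788 lie above 0 before adjustment, and the other 28 cover 0.

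The member with the largest fitted difference was ASCRP3001371, at 1.08, 2.78 and 3.30 with cytokines for 24 h and at 4.03, 3.48 and 3.95 for 48 h. The difference was 1.44 (SE 0.52, 95% interval 0.30 to 2.57), with an adjusted p of 0.354 in limma. All 3 arrays of 48 h lay above those of 24 h, and the lowest value, on cytokines 24 h replicate 1, was the only one of its cytokine arrays not well above background. ASCRP3008788 followed with a difference of 0.97 (SE 0.44, interval 0.03 to 1.92, adjusted p 0.411 in limma). ASCRP3001023 was at 1.95, 3.17 and 2.12 for 24 h and at 3.86, 3.22 and 2.83 for 48 h, a difference of 0.89 whose interval reached from -0.09 to 1.87.

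The lowest differences belonged to ASCRP3003319, ASCRP3006967 and ASCRP3001587. ASCRP3003319 was at 3.81, 4.91 and 4.46 with cytokines for 24 h and at 4.25, 3.60 and 2.80 for 48 h, a difference of -0.84 (SE 0.48, interval -1.87 to 0.19). ASCRP3006967 was at 4.59, 3.08 and 3.16 for 24 h and at 2.81, 3.52 and 2.19 for 48 h, a difference of -0.77. ASCRP3001587 was at 4.14, 4.30 and 3.14 for 24 h and at 4.0, 2.87 and 2.59 for 48 h, a difference of -0.71. For each of these the arrays of the time points overlapped. Over all members, the 48 h arrays lay entirely above the 24 h arrays in 7 cases, beside 9.33% of all probes, and entirely below in 0 cases, beside 8.25%.

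The cytokine response itself, the difference from untreated cells, was not found to differ between 48 h and 24 h for any member (adjusted p 0.482 to 0.993 in limma). One member had an unadjusted p under 0.05, as did 1035 of the 10211 probes (10.1%). That member was ASCRP3001371, with an interaction of 1.80 (SE 0.74), and it passed the cutoffs when arrays were weighted by their quality (2.10, SE 0.53, adjusted p 0.0478), a fit that called 2.03% of all probes higher and 1.96% lower. The median interaction was 0.06 over the members and above 0 for 16 of them, beside 51.6% of all probes. The interaction also uses the untreated values, few of which were well above background. In untreated cells the rule itself kept the members low at both times, so their difference between 48 h and 24 h is a description: its median was 0.04, with 16 of 30 members above 0 (background 51.6%).

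Scan day moved with these contrasts. The 3 arrays of cytokines 48 h were all of scan day 2 and those of cytokines 24 h all of scan day 1. Scan day and time therefore cannot be told apart within the cytokine arrays, and only the untreated 48 h arrays, which were split, link the days. With scan day as a fixed block the median difference between 48 h and 24 h of cytokines was 0.01, with 16 of 30 members above 0. The median over all retained probes in that fit was 0.03, and their share above 0 was not computed. Leaving out cytokines 24 h replicate 3 gave a median of 0.08, and leaving out cytokines 24 h replicate 1 gave 0.34.

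At 48 h the response could be computed within scan day 2 and across scan days. Against the 1 untreated array of the same scan day, untreated 48 h replicate 3, the median difference was 2.58. All 30 members were above 0, and 27 were at 1 or more on the log2 scale. Against the 2 untreated arrays of scan day 1 the median was 2.75, with 30 above 0 and 28 at 1 or more. The shares of all retained probes above 0 or at 1 or more in these 2 comparisons were not computed. For 29 members all 3 cytokine arrays of 48 h were above that untreated array of the same scan day, beside 31.2% of all probes. The rule had used the detections on these same arrays, so these counts are a description and no check of the response. With scan day as a fixed block, 7 of the 30 passed the cutoffs at 48 h instead of 21, and 0.176% of all probes were called higher instead of 0.842%. At 48 h that fit compares the cytokine arrays with the 1 untreated array of scan day 2, so it is no separate adjustment. Its median difference over the members was 2.58, where the fit without the block gave 2.70, and over all retained probes it was -0.01.

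The number of members detected on each array was limited by the rule and is a description of where the misses lay. With cytokines for 24 h, replicates 1, 2 and 3 detected 29, 27 and 27 of the 30, and for 48 h they detected 29, 29 and 28. Untreated arrays detected 0, 4 and 1 at 24 h and 0, 1 and 6 at 48 h. Thus 6 of the 12 detections without cytokines were on untreated 48 h replicate 3, the untreated array with most detected probes over all. Without that array, and with still at most 1 untreated array allowed, 47 probes in place of 30 would have met the rule.

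**Figure D5:**
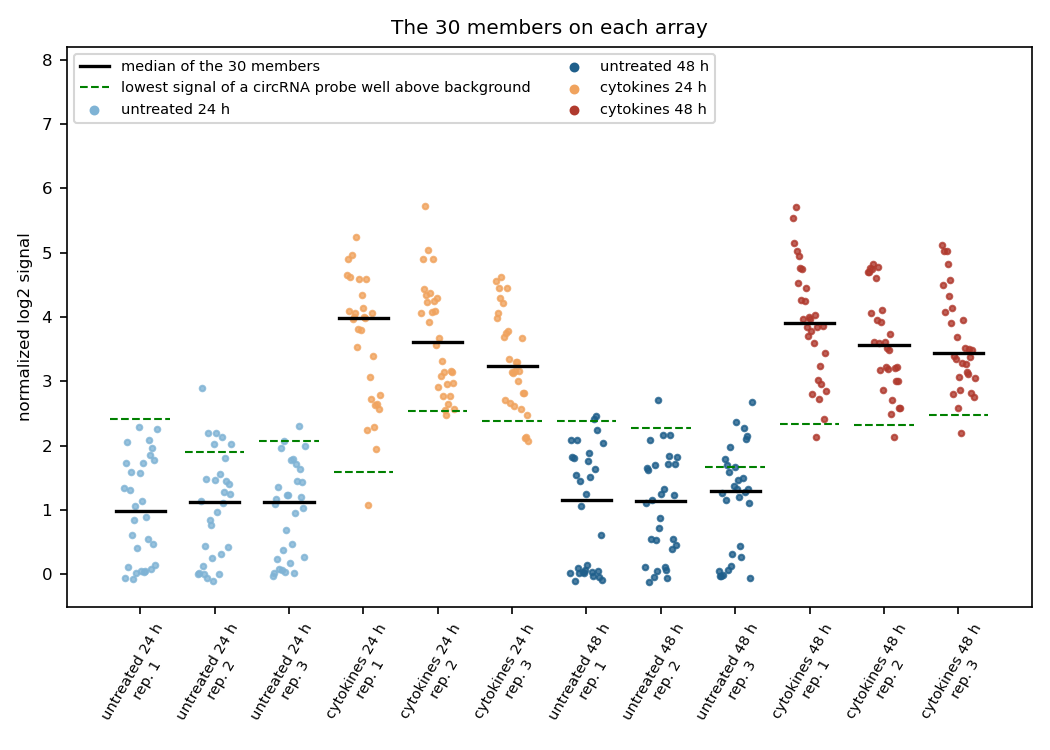
Normalized log2 signal (y axis) of the 30 probes on each of the 12 arrays (x axis), 1 point per probe; black bars are medians and green dashed lines the lowest signal of a circRNA probe that was well above background on that array. Medians are 3.24 to 3.98 on the cytokine arrays and 0.98 to 1.30 on the untreated arrays.

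The median signal of the members was 3.98, 3.62 and 3.24 on the 3 arrays of cytokines 24 h and 3.91, 3.56 and 3.44 on those of cytokines 48 h. On untreated arrays it was 0.98, 1.12 and 1.13 at 24 h and 1.16, 1.13 and 1.30 at 48 h. Every cytokine array thus lay above every untreated array in the median, and the cytokine arrays of 24 h spanned a wider range than those of 48 h and enclosed it.

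The SD of a member within the cytokine groups was 0.17 to 0.97 with a median of 0.52, and the median over all retained probes was 0.40. ASCRP3008494 had the smallest, 0.17, with values of 2.64, 2.78 and 2.82 for 24 h and of 2.97, 3.01 and 3.38 for 48 h. ASCRP3004109 came next with 0.19, at 4.07, 3.93 and 3.69 for 24 h and 4.27, 4.61 and 4.58 for 48 h. The widest spreads were those of ASCRP3013166 (0.97) and ASCRP3001371 (0.85), in both cases through 1 low array of cytokines 24 h. No array held the extremes alone: among the arrays of cytokines 24 h, replicate 1 was the highest for 11 members, replicate 2 for 13 and replicate 3 for 6, and among those of cytokines 48 h the numbers were 17, 6 and 7.

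Signal from linear RNA, which RNase R should remove, was compared as well, without a test. Over the 16 linear mRNA probes detected on every spot, the median difference between cytokine-treated and untreated arrays, with each array scaled to its upper quartile, was 0.24 on the log2 scale at 24 h, with 9 of 16 higher, and 0.34 at 48 h, with 16 of 16 higher. At 48 h this sets arrays of scan day 2 against untreated arrays of which 2 were of scan day 1. The part of this in the results on the 30 circRNAs was not tested.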

How the data were processed

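RNA of 12 EndoC-βH1 samples (4 groups, 3 arrays each) had been hybridized to Arraystar human circRNA arrays. The intensity values used are the background-subtracted processed signals that the authors deposited per array, made with Agilent Feature Extraction (11.0.1.1). The log2 values that the authors deposited per probe, normalized with limma, served as an alternative. Groups came from the sample labels.

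Log2 processed signals of the 13617 circRNA probes were quantile normalized. A probe was retained when both detection flags of the scanner software were set on 3 or more of the 12 arrays, which left 10211 probes, among them all 30 members. Group means were fitted with limma 3.58.1 (R 4.3.3) over all arrays with Benjamini-Hochberg adjustment over the retained probes, after a test on simulated data. Cutoffs were an absolute log2 fold change of 1 and an adjusted p of 0.05.

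The members, lists and tests were chosen with earlier results of these data known. Probes named in the text are the 10 members with the highest mean on the cytokine arrays, the 3 with the highest and the 3 with the lowest difference between 48 h and 24 h, the 2 with the largest and the 2 with the smallest SD, and 2 probes on each side of the limit. Gene lists fixed for interferon, NF-κB, antigen presentation and ER stress genes could not be applied, since no table used here pairs probes with genes. Correlations of the deviations of same-numbered samples were -0.34 to 0.33 over 18 pairs, with 6 above 0.1. No differently numbered samples were set beside them, so these values do not settle whether the numbers mark pairs. The numbers were not taken as pairs in the main fit. Alternatives covered background, normalization, filters, weights, scan day, the replicate number and each array left out.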

Additional observations from a re-analysis of the deposited data

How the results depend on the processing

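Membership depended on the rule. With the positive-and-significant flag in place of the well-above-background flag 19 probes met it, of which 2 were among the 30. Asking for all 6 cytokine and 0 untreated arrays left 12, and asking for at least 4 and at most 2 gave 91. Leaving out 1 array gave 30 to 47, the highest without untreated 48 h replicate 3. The rule then asked for at least 4 of the cytokine arrays left, or still for at most 1 of the untreated arrays left. All 30 members had to stay under these looser limits, so the count could not fall and does not show how stable the set was. Turning the rule round gave 52. Members past the cutoffs with cytokines numbered 19 at 24 h and 21 at 48 h, whereas signals before background subtraction gave 9 and 7, normexp 0 and 0 (22 and 25 at an unadjusted p under 0.05), the deposited log2 values 4 and 4, and the strictest detection pattern held 11 and 12. A floor at the lowest detected signal gave 13 at each time, beside 1.21% and 0.764% of all probes called higher. Scan day as a fixed block gave 18 at 24 h and 7 at 48 h, beside 0.97% and 0.176%. Fitting only the groups compared gave 13 and 17, beside 43 and 93 of all 10211 probes called higher. Array weights gave 27 and 26, beside 6.7% and 1.84% of all probes called higher. Leaving out 1 array gave 15 to 21 at 24 h and 14 to 21 at 48 h. Of all 10211 probes, 58 to 325 were then called higher at 24 h and 38 to 101 at 48 h. The lowest count at 24 h, 15, came without cytokines 24 h replicate 2. At 48 h the lowest, 14, came without untreated 48 h replicate 1 or without cytokines 48 h replicate 1 or 2. For 48 h against 24 h of cytokines, untreated cells over time and the interaction the count was 0 to 0 over the arrays left out, and array weights gave 1 member for the interaction, ASCRP3001371. No called difference of a named member changed sign under the alternatives run, and the causes of the other changes were not tested.

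With the replicate number as a block, 18 members passed the cutoffs at 24 h, 19 at 48 h and 0 in each of the contrasts over time, beside 19, 21 and 0 without it. Of all probes, 0.842% were called higher at 24 h and 0.774% at 48 h with this block.

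Signal over background limits what the untreated arrays can show: a probe under the lowest detected signal has no measured level there, and the fitted differences, unlike the lower bounds, depend on such values. The lower bounds in turn hold only for background-subtracted signals.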
